A study of Saccharomyces cerevisiae with 4 samples.

Results

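The general stress genes described here are 31 *Saccharomyces cerevisiae* transcripts known to be induced by many kinds of stress through the transcription factors Msn2 and Msn4. They were listed by systematic ORF name and looked up in a table of 6212 rows. No cut-off on their ratios was used, but earlier results of these data were known when the list was chosen. Chaperones and the enzymes of trehalose and glycogen were left out. Of the 31 genes, 23 had a value on all 4 arrays, SOL4 and MOH1 on 3, XBP1, GPX1 and UIP4 on 2, and TKL2 on 1. PAI3 was empty on every array and DDR2 was not analysed here.

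The wild type was BY4741 and the mutant a trk1 trk2 double mutant of the same strain, which lacks both Trk potassium transporters. All cultures grew at 28 °C in Translucent medium, whose own potassium was 15 µM, with 50 mM KCl added, and were filtered in log phase at an A600 of 0.6. No group was exposed to a stress, so the comparison asks how these genes stood in unstressed growth with ample potassium. The 2 strains were hybridised together on each of 4 two-colour arrays. The arrays were treated as 2 experiments, arrays 1 and 2 and arrays 3 and 4, each in both dye orientations. This pairing was inferred, because the labels do not say which arrays share an experiment and the titles number each array separately. Mutant cDNA was red (Cy5) on array 1 and array 4, green (Cy3) on array 2 and array 3. Ratios are mutant over wild type on a log scale whose base was taken as 2, and a gene's mean averages its 2 experiments, each first averaged over its arrays. The arrays held from 4690 to 5403 values, and 4255 genes on all 4 were tested together with limma. The deleted TRK1 read −6.13 and −4.60 on the arrays where it had a value (1 and 4), and TRK2 read −4.23 on array 4, the only array where it had one.

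Msn2 and Msn4 are zinc finger activators that bind the stress response element in many promoters. In growing cells protein kinase A keeps them in the cytoplasm. Stress or falling nutrients lower that kinase's activity, and the factors enter the nucleus and switch on enzymes of sugar, aldehyde and peroxide metabolism together with chaperones and storage sugars. The same genes rise in yeast as growth slows, so their level follows growth conditions as well as acute stress.

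Most of the general stress genes did not change past the test, and those that did went both ways. GAD1, TFS1 and MSC1 fell, at 3.0-fold to 3.65-fold lower ratios in the mutant, and YGP1 and DDR48 rose, by 2.16-fold and 1.94-fold. That is 3 of 23 genes lower and 2 of 23 higher at an adjusted p under 0.05, where 1.74% of all 4255 genes were called lower and 1.62% higher. The other 18 had means from −0.66 to 0.54, 14 of them negative, with limma adjusted p from 0.210 to 0.884. The median of the 23 means was −0.22, beside −0.04 over all genes. The 5 calls are those 3 genes that were negative on all 4 arrays (21.1% of all genes were) and those 2 that were positive on all 4 (17.5% of all genes). Without array 3 limma called 0% of all genes and none of the 5 held (smallest adjusted p of the 5, 0.460; 3 of 23 general stress genes lower and 1 higher at an unadjusted p under 0.05). Without array 1 only TFS1 was called, where 1.18% of all genes were lower and 1.01% higher. Without array 2 none was, where 0.611% were lower and 0.846% higher (3 of 23 genes higher and 4 lower at an unadjusted p under 0.05). Without array 4 all 5 held and UBI4 was called higher as well, where 2.84% of all genes were lower and 2.26% higher. With 4 separate arrays as the replicates and a dye term only YGP1 and GAD1 remained, where 2.42% of all genes were called higher and 3.34% lower.

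**Figure D1:**
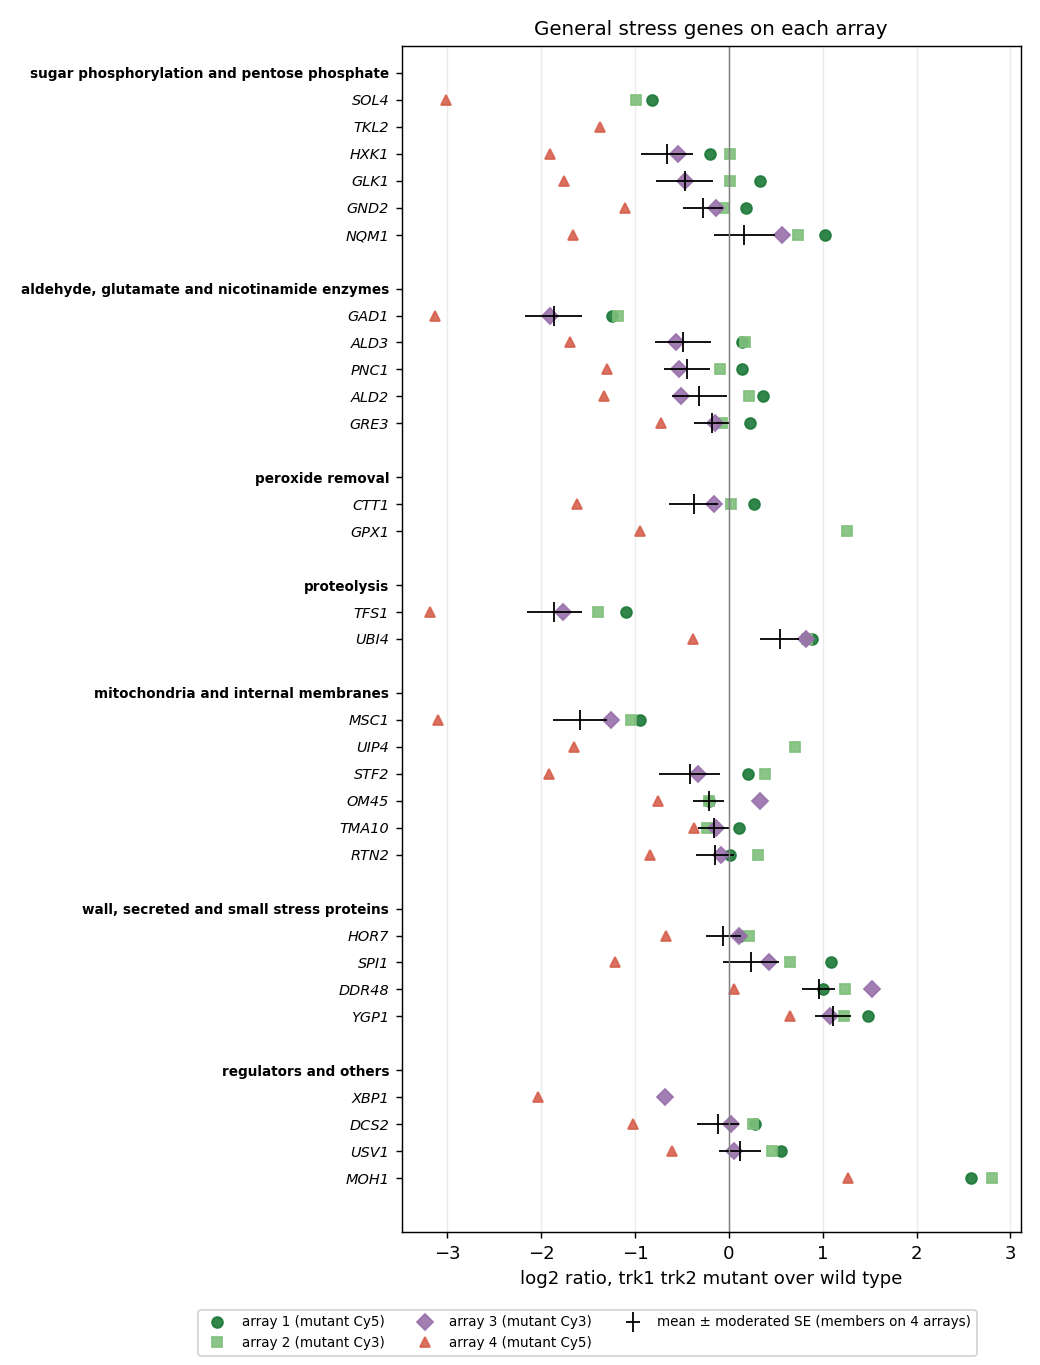
Log2 ratio of mutant over wild type (horizontal axis) of the general stress genes with any value, 29 in all, grouped by role; each symbol is 1 array and the black bar is the mean with limma's moderated SE for the 23 genes on all 4 arrays. Array 4 (red triangles) is the leftmost symbol of each gene with more than 1 value, and GAD1, TFS1 and MSC1 lie left of 0 and YGP1 and DDR48 right of 0 on every array.

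The level of the whole set differed between arrays. The median of the 23 genes was 0.21 on array 1, 0.17 on array 2, −0.14 on array 3 and −1.22 on array 4, while the median of all genes stayed between −0.09 and 0.04. Array 4 gave the lowest of the 4 ratios for 23 of 23 genes, where it was lowest for 23.8% of all genes. It was also the lowest for the 5 genes with a value on only 2 or 3 arrays. On array 4, 19 of the 23 genes lay in the lowest 10% of that array's ratios, against 3 of 23 on each of the other arrays. The array 4 ratio minus the mean of the other 3 had a median of −1.22 over the 23 genes and ran from −2.44 for NQM1 to −0.28 for TMA10, while over all genes its median was 0.11. Array 3, the dye swap placed in the same experiment, and array 1, with the same dye orientation, did not share this low level. The cause was not tested.

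The experiment means of many genes differed in sign. The mean of arrays 1 and 2 was positive and that of arrays 3 and 4 negative for 14 of the 23 genes, where 15.2% of all genes had that pattern. NQM1, SPI1, HOR7, USV1 and DCS2 of these 14 were positive on array 3 too, so array 4 alone made their second mean negative. The median was 0.16 in the first experiment and −0.55 in the second. The order of the genes was more alike than their level: across the 23 genes Pearson's r between arrays was 0.78 to 0.95 and Spearman's rho 0.48 to 0.82. These are descriptions over genes that share arrays and RNA. Over all 4255 genes r was 0.55 to 0.80 among arrays 1, 2 and 3. Between array 4 and each of the others it was lower, at 0.27 to 0.39.

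**Figure D2:**
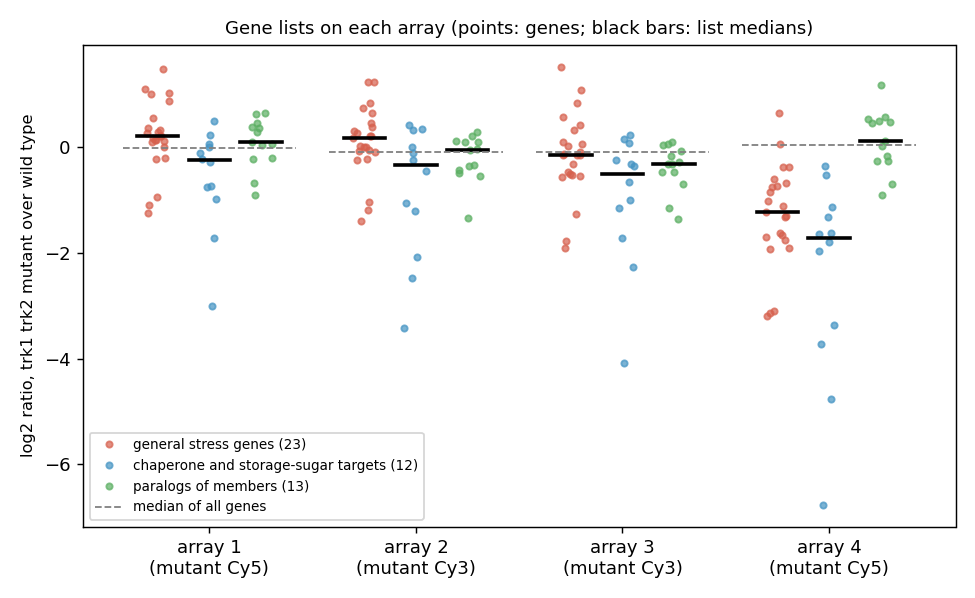
Log2 ratio of mutant over wild type (vertical axis) on each array for the 23 general stress genes, 12 chaperone and storage-sugar targets and 13 paralogs with a value on all 4 arrays; points are genes, black bars list medians and dashed lines the median of all 4255 genes. On array 4 the medians of both stress lists lie at −1.22 and −1.72 while that of the paralogs is 0.11.

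Among the enzymes of glutamate, aldehyde and nicotinamide metabolism, 1 of 5 fell and none rose. GAD1 (YMR250W), the glutamate decarboxylase, which makes γ-aminobutyrate and takes part in tolerance of oxidants, read −1.25, −1.19, −1.91 and −3.13 on arrays 1 to 4. It was low on every array and lowest on array 4. Its mean was −1.87 ± 0.31 (moderated SE, n = 2 experiments), a 3.65-fold lower ratio with a limma adjusted p of 0.0347. The other 4 enzymes did not pass. ALD2 (YMR170C) and ALD3 (YMR169C), cytosolic aldehyde dehydrogenases of β-alanine synthesis and adjacent, similar genes whose spots may share signal, had means of −0.32 and −0.49. ALD2 read 0.37, 0.21, −0.51 and −1.33, and ALD3 0.14, 0.17, −0.57 and −1.69, so both crossed 0 between the experiments. PNC1 (YGL037C), the nicotinamidase of NAD+ salvage, had a mean of −0.44 and GRE3 (YHR104W), an aldose reductase that also reduces methylglyoxal, −0.18. All 5 enzymes were negative on arrays 3 and 4.

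Of the sugar kinases and the stress isoforms of the pentose phosphate pathway, 4 were tested and none passed limma's test. HXK1 (YFR053C), a hexokinase, read −0.21, 0.01, −0.55 and −1.91, with a mean of −0.66 ± 0.28 (adjusted p = 0.252). If arrays 1 and 3, and 2 and 4, were taken as the experiments, HXK1 was called lower (adjusted p = 0.0416), along with GAD1, TFS1 and MSC1, where 11.1% of all genes were lower and 5.99% higher. GLK1 (YCL040W), the glucokinase, read 0.33, 0.01, −0.47 and −1.76. HXK1 and GLK1 stayed between −0.55 and 0.33 on arrays 1 to 3 and were low on array 4. GND2 (YGR256W), a 6-phosphogluconate dehydrogenase, read 0.18, −0.05, −0.14 and −1.11. NQM1 (YGR043C), a transaldolase, read 1.02, 0.74, 0.56 and −1.66, so it was high on 3 arrays and low on array 4, the widest gap of the 23 genes. SOL4 (YGR248W), a 6-phosphogluconolactonase, had no value on array 3 and read −0.83, −0.99 and −3.02 on the others. In a limma fit that asked for only 1 array of each experiment, SOL4 had a mean of −1.96 ± 0.47 (adjusted p = 0.116), with array 4 alone standing for the second experiment. TKL2 (YBR117C), a transketolase, read −1.37 on array 4 and had no replicate.

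The genes of peroxide removal and proteolysis held 1 call, the fall of TFS1. CTT1 (YGR088W), the cytosolic catalase and a classical reporter of Msn2 and Msn4 activity, read 0.26, 0.02, −0.16 and −1.62, with a mean of −0.37 ± 0.26 (adjusted p = 0.464). It was near 0 on 3 arrays and low on array 4. GPX1 (YKL026C), a glutathione peroxidase, read 1.26 on array 2 and −0.95 on array 4, so its 2 values disagreed in sign. TFS1 (YLR178C), an inhibitor of vacuolar carboxypeptidase Y, read −1.10, −1.40, −1.77 and −3.19. Every array was low, and the mean of −1.86 ± 0.29 was a 3.63-fold lower ratio (adjusted p = 0.0308). UBI4 (YLL039C), the polyubiquitin gene that supplies ubiquitin under stress, read 0.88, 0.83 and 0.83 on arrays 1 to 3 and −0.38 on array 4. Its mean of 0.54 ± 0.20 did not pass (adjusted p = 0.210), but without array 4 it was 0.84 and was called (adjusted p = 0.0443). Ubiquitin is also encoded in fusions to ribosomal proteins, so the spot of UBI4 may hold signal from those genes.

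Of 5 tested mitochondrial and membrane proteins 1 fell. MSC1 (YML128C), a protein of unclear function linked to meiotic recombination, read −0.95, −1.04, −1.26 and −3.10. The first 3 arrays lay close together and array 4 far below them. Its mean was −1.59 ± 0.29, a 3.0-fold lower ratio (adjusted p = 0.0444), and −1.13 without array 4. OM45 (YIL136W), a protein of the mitochondrial outer membrane, had a mean of −0.22, with 0.33 on array 3 and negative values elsewhere. STF2 (YGR008C), which helps cells survive drying, and its paralog TMA10 (YLR327C), a ribosome-associated protein, had means of −0.42 and −0.16. They differed most on array 4, at −1.92 for STF2 and −0.37 for TMA10, the smallest shift of the set there. RTN2 (YDL204W), a reticulon that shapes the endoplasmic reticulum, had a mean of −0.15. UIP4 (YPL186C), a nuclear envelope and endoplasmic reticulum protein, read 0.70 on array 2 and −1.65 on array 4.

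Both genes that rose were placed here among the wall, secreted and small stress proteins. This is a mixed group drawn up for this report, and no test compared it with the other groups. The 4 genes of this kind with full values were positive on arrays 1 to 3. YGP1 (YNL160W), a secreted glycoprotein induced by nutrient limitation, read 1.49, 1.23, 1.07 and 0.65. It was higher in the mutant on every array, with a mean of 1.11 ± 0.19 (adjusted p = 0.0401). DDR48 (YMR173W), a stress protein named for its induction by DNA damage, read 1.0, 1.24, 1.53 and 0.06. It rose to a mean of 0.95 ± 0.17 (adjusted p = 0.0472), although array 4 alone showed almost no difference. SPI1 (YER150W), a GPI-anchored wall protein that protects against weak acids, read 1.09, 0.65, 0.43 and −1.22, and its mean of 0.24 ± 0.30 did not pass (adjusted p = 0.686). HOR7 (YMR251W-A), a small hyperosmolarity-responsive protein, read 0.12, 0.22, 0.10 and −0.67. PAI3, the inhibitor of the vacuolar proteinase A and the neighbour of DDR48 on the chromosome, had no value to set beside it.

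The remaining genes are regulators and a protein of little known function. USV1 and DCS2 were tested and did not pass. XBP1 and MOH1 lacked a value on some arrays and were not in that test. XBP1 (YIL101C), a repressor of cell cycle genes, read −0.68 on array 3 and −2.04 on array 4, with no value in the first experiment. USV1 (YPL230W), a zinc finger factor of growth on non-fermentable carbon and of salt stress, had a mean of 0.12, and DCS2 (YOR173W), a modulator of the mRNA cap scavenging enzyme, −0.12. MOH1 (YBL049W), the protein of little known function, is linked to survival in stationary phase. It had the highest ratios of the set, at 2.58, 2.81 and 1.27 on arrays 1, 2 and 4. In the fit that asked for 1 array of each experiment its mean was 1.98 ± 0.34 (adjusted p = 0.0665), and in that fit no general stress gene passed, where 0.819% of its 4882 genes were called higher and 0.799% lower (smallest adjusted p 0.0596; 4 of 27 higher and 4 lower at an unadjusted p under 0.05).

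**Figure D3:**
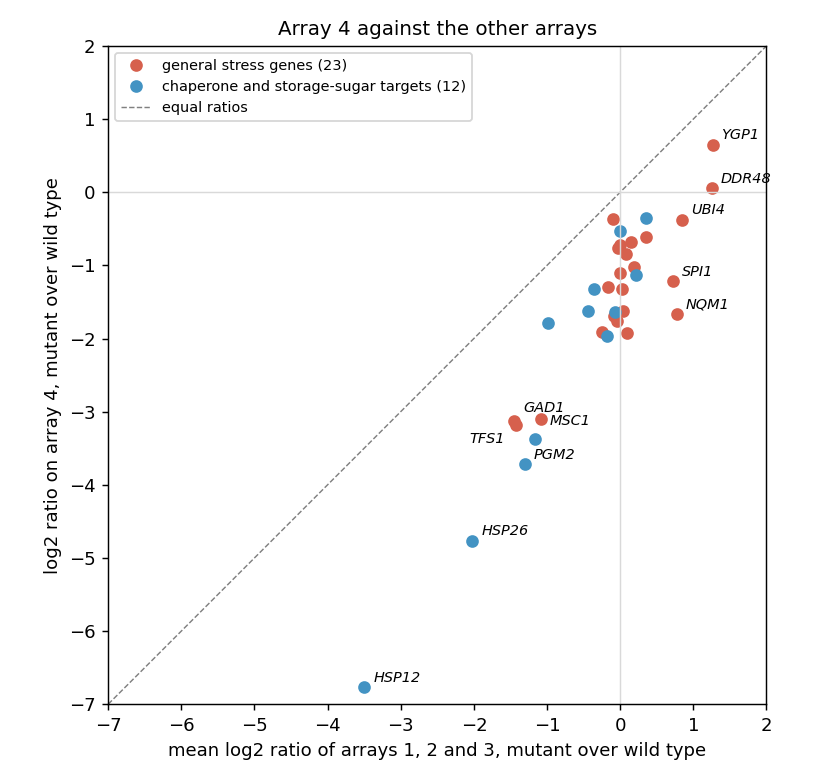
Log2 ratio on array 4 (vertical axis) against the mean of arrays 1, 2 and 3 (horizontal axis) for the 23 general stress genes (red) and 12 chaperone and storage-sugar targets (blue); the dashed line marks equal ratios. Every point lies below the line, by a difference from −0.28 for TMA10 to −3.27 for HSP12.

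Several of these genes have a paralog outside the set, and on array 4 nearly every stress gene read below its paralog. This held for 12 of 13 pairs on array 4, against 5 of 10 on array 1, 4 of 12 on array 2 and 3 of 9 on array 3. GPX1 was paired with both HYR1 and GPX2. The stress genes were themselves lowest on array 4, so these counts are not separate from that pattern. The median difference of stress gene minus paralog was 0.15, 0.43, 0.31 and −1.33 on arrays 1 to 4. The difference between the members of a pair was not tested. HXK2 (YGL253W), the main hexokinase on glucose, read 0.65, 0.20, 0.05 and 1.17, above HXK1 on each array, and HXK1 minus HXK2 was −3.08 on array 4. SOL3 (YHR163W) read 0.29, −0.04, −0.31 and 0.46, above SOL4 wherever both had a value, and SOL4 minus SOL3 was −3.48 on array 4.

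GND1 (YHR183W) and TKL1 (YPR074C), the main 6-phosphogluconate dehydrogenase and transketolase, were negative on arrays 1 to 3, from −0.21 to −0.70, and read 0.49 and 0.47 on array 4. GND1 was thus below GND2 on 3 arrays and above it on the last. TAL1 (YLR354C), the main transaldolase, was the only paralog called, 1 of 13, where 1.74% of all genes were called lower. It read −0.91, −1.34, −1.37 and −0.91 and fell 2.19-fold (mean −1.13 ± 0.16, adjusted p = 0.0228). The call of TAL1 was lost without array 2 (adjusted p = 0.0732) or array 3 (0.395). The difference of its stress isoform NQM1 minus TAL1 was 1.93 to 2.07 on arrays 1 to 3 and −0.75 on array 4. DCS1 (YLR270W), the cap scavenging enzyme itself, was the exception among the paralogs, at 0.38, 0.30, 0.10 and −0.69, close to the values 0.28, 0.26, 0.02 and −1.03 of DCS2.

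RTN1 (YDR233C) read 0.63, 0.11, 0.07 and 0.53, beside 0.01, 0.31, −0.09 and −0.84 for RTN2. SED1 (YDR077W), a structural wall protein, stayed between −0.33 and 0.11, below SPI1 on 3 arrays and above it on array 4. RGM1 (YMR182C) stayed between −0.07 and 0.09, beside 0.55, 0.46, 0.06 and −0.61 for USV1. SPS100 (YHR139C), a spore wall protein, read 0.09, −0.35, −0.48 and 0.58, below YGP1 on every array. The peroxisomal catalase CTA1 (YDR256C) read 0.36, 0.10, −0.46 and −0.27, within 0.31 of CTT1 on arrays 1 to 3. HYR1 (YIR037W) and GPX2 (YBR244W), the other glutathione peroxidases, read −0.05 and −0.50 on array 2 and −0.26 and −0.16 on array 4.

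**Figure D4:**
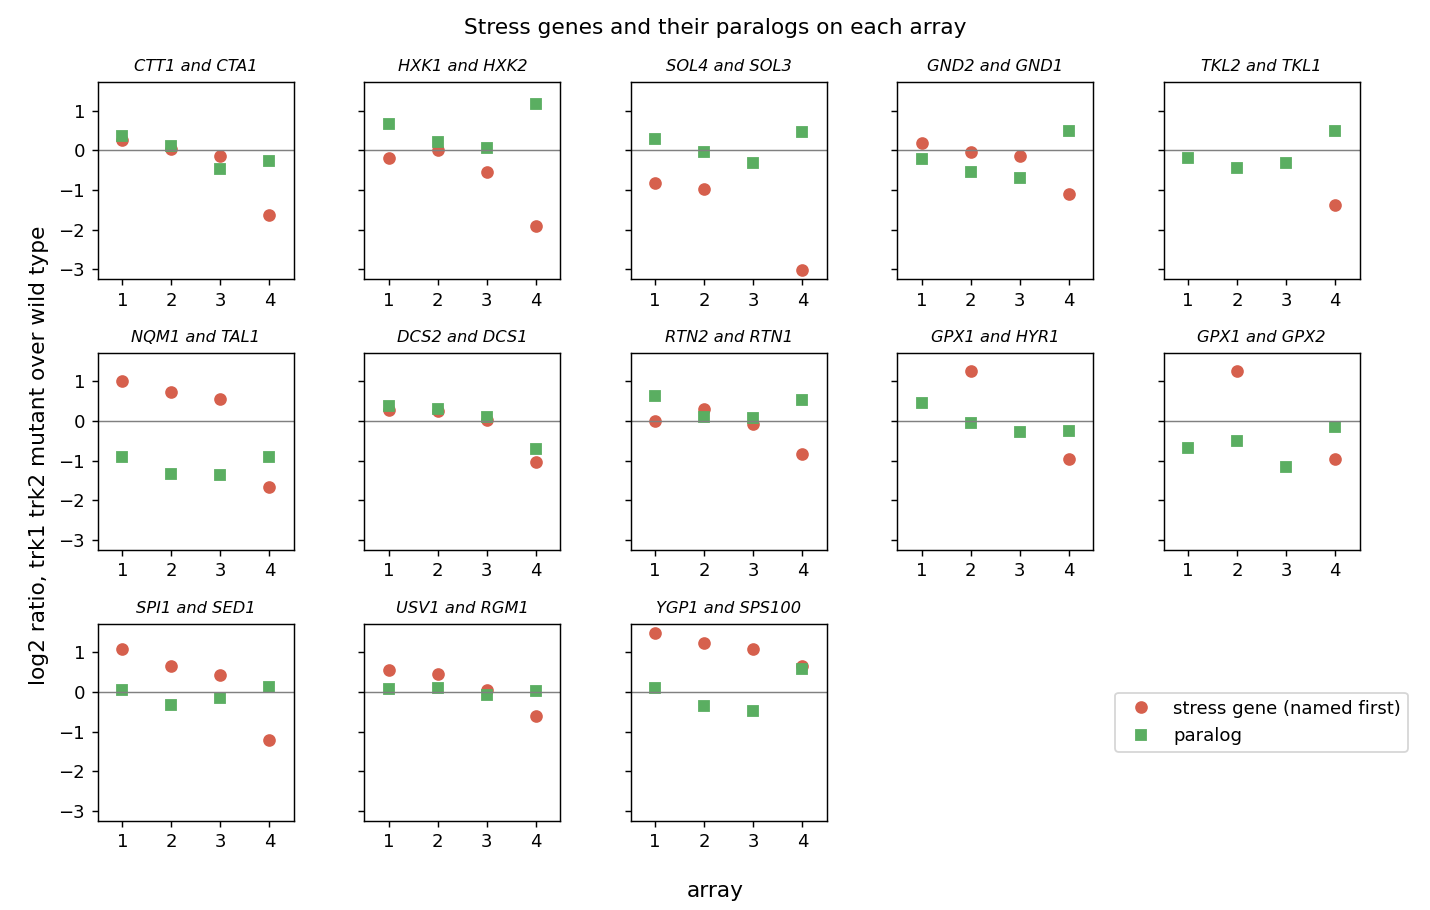
Log2 ratio of mutant over wild type (vertical axis) on arrays 1 to 4 (horizontal axis) for 13 pairs of a general stress gene (red circles, named first) and a paralog (green squares); a missing symbol is an empty cell. On array 4 the stress gene is the lower of the pair in 12 panels and YGP1 is the exception.

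The transcripts of the pathway's own regulators had their lowest median on array 4, but gene by gene they showed little shift there. Of 22 regulators 19 had full values, with a median of −0.49 on array 4 and −0.20, −0.12 and −0.35 on arrays 1 to 3. The array 4 ratio minus the mean of the other 3 had a median of −0.05 over these 19 and was negative for 11. That median was −1.22 for the general stress genes and 0.11 for all genes. MSN2 (YMR037C) read −0.20, −0.25, −0.35 and 0.02 and MSN4 (YKL062W) −0.23, 0.11, −0.49 and −0.79, and neither passed (adjusted p = 0.535 and 0.372). Array 4 was the lowest for 8 of the 19 regulators, where it was lowest for 23.8% of all genes, and 8 of the 19 lay in the lowest 10% of its ratios, against 3 to 6 on the other arrays. The 8 for which it was lowest include MSN4 and the kinase YAK1. RAS1 (YOR101W), a GTPase that stimulates adenylate cyclase, was the only regulator called, 1 of 19, where 1.74% of all genes were called lower. It read −0.87, −1.0, −1.29 and −0.61 and fell 1.92-fold (mean −0.94 ± 0.16, adjusted p = 0.0403). The call of RAS1 was lost without array 1, 2 or 3 (adjusted p = 0.0519, 0.0849 and 0.50).

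Other parts of the Ras and protein kinase A branch were negative on all 4 arrays but missed the threshold. IRA1 and IRA2, which switch Ras off, had means of −0.84 and −0.97 (adjusted p = 0.0569 and 0.0606), and the adenylate cyclase CYR1 had −0.56 (adjusted p = 0.124). The growth kinases TOR1 and SCH9 had −0.64 and −0.68 (adjusted p = 0.0976 and 0.141). With the other pairing of arrays, 7 regulators passed as lower, where 11.1% of all genes did. They were RAS1, IRA1, IRA2, CYR1, TOR1, SCH9 and GIS1, a zinc finger factor downstream of Rim15.

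The targets of Msn2 and Msn4 outside this set, chaperones and storage-sugar enzymes, were also lowest on array 4, and their medians were negative on every array. Array 4 was the lowest for 12 of the 12 with full values, where it was lowest for 23.8% of all genes. The medians were −0.25, −0.35, −0.50 and −1.72. HSP12, HSP26, GSY1, PGM2 and UGP1 fell, 5 of 12, where 1.74% of all genes were called lower. All 5 held without array 4, 4 without array 1 (not PGM2), 2 without array 2 (HSP12 and HSP26) and 0 without array 3. Over all genes 2.84%, 1.18%, 0.611% and 0% were called lower in these fits, in that order. Without array 3 the smallest limma adjusted p of the 12 was 0.298, and 6 of the 12 were lower at an unadjusted p under 0.05. GSY1, a glycogen synthase, read 0.004, −2.48, −1.01 and −3.37, so its arrays within an experiment disagreed. Its call (adjusted p = 0.0230) was lost with 4 separate arrays (0.0771), with the random block (0.0674) and with the other pairing (0.0669). UGP1 (YKL035W), which makes UDP-glucose for glycogen, trehalose and wall glucan, read −0.76, −1.06, −1.16 and −1.79 and fell 2.29-fold (mean −1.19 ± 0.20, adjusted p = 0.0356). Whether the share called differs between the 2 lists was not tested.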

How the data were processed

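Per the labels, 8 µg of total RNA was reverse transcribed from oligo(dT) primers and the dyes were coupled indirectly, and spots under 120 µm or under 100 fluorescence units were not considered by the authors, so their cells are empty. The values used are the log2 ratios the authors deposited. The sources used here do not give their normalization, centring or log base, and base 2 was assumed. The array medians were −0.02, −0.09, −0.10 and 0.01. The direction, mutant over wild type, follows from the negative ratios of the deleted genes and the positive correlation of the columns.

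The labels do not say which arrays share an experiment. Arrays 1 and 2, and 3 and 4, were paired by the wording of their description field. Over all genes r was 0.80 between arrays 1 and 2 but 0.39 between arrays 3 and 4. Array 3 had a higher r with array 2 (0.69) and array 1 (0.55). The correlation within these pairs that limma estimated for the random block was −0.05. Whether the pairing is right was not tested. The arrays of an experiment were averaged, and the 2 means compared with 0 in limma 3.58.1 (lmFit, eBayes; R 4.3.3). P-values were adjusted over 4255 genes by the Benjamini-Hochberg method, with a threshold of 0.05. The number of arrays limits the precision. On simulated data of 4255 genes for this comparison, recovery was 7.97% at a 1.5-fold change, 63.7% at 2-fold and 98.9% at 4-fold, with 9.3 false calls per simulation. In the simulated data genes varied independently, and the spread between the arrays of an experiment cancelled in its mean. No array was shifted for a whole set of genes, as array 4 was here, so these figures do not cover such a shift. Alternatives changed the pairing, the unit of replication, the dye term, centring, scale, filter and arrays.

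Symbols of all 83 listed genes matched the RefSeq table of assembly R64, which was used for names and neighbours only. Probe sequences were not used, so signal shared by similar genes could not be separated. The genes and lists were chosen with earlier results of these data known. All 31 genes are named. Values on each array are given for those that were called, that had a mean of at least 1 in size or that had a paralog in the list, and regulators and other targets that were called are named, with MSN2 and MSN4. Other values shown by array were chosen after they were seen. Lists are described by counts and medians, without a set test.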

Additional observations from a re-analysis of the deposited data

Results flagged for a closer look

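Array 4 stood apart from the other arrays for 4 of the 23 general stress genes, by a gap to the nearest array that took up most of the gene's range. This share of the range was 0.856 for MSC1 (−3.10 on array 4), 0.874 for HOR7 (−0.67), 0.957 for UBI4 (−0.38) and 0.830 for NQM1 (−1.66), each above the critical value of Dixon's test for 4 values. Array 4 was the low one each time, as it was for 1.5% of all 4255 genes. Any 1 array, high or low, stood apart for 6.77% of all genes, a count in which chance flags about 1 gene in 20. Array 4 was low and apart in the same way for 1 of 12 chaperone and storage-sugar targets (GSY2), 2 of 19 regulators (YAK1 and RAS2) and 0 of 13 paralogs. The cause was not tested.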

How the results depend on the processing

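No paired analysis was possible because the arrays form 1 group, with no second group to pair them with; each ratio itself already compares both strains within an array. With the other pairing 255 genes were called higher and 473 lower, instead of 69 and 74, and 7 regulators lower and 1 paralog (HXK2) higher. With 4 separate arrays the counts were 163 and 250 (3.83% and 5.88% of all genes), with 5 regulators lower. With a random block they were 185 and 292 (4.35% and 6.86%), with 6 regulators lower. With 4 separate arrays and a dye term 142 genes, 3 regulators and 3 chaperone or storage-sugar targets were lower, and of the general stress genes 1 was higher (YGP1) and 1 lower (GAD1). Median centring called 106 genes higher, scaled arrays 113 lower, and each called 3 regulators lower, where 2.33% and 2.66% of all genes were lower. With at least 1 array of each experiment 40 genes were higher and 39 lower, with 3 of the chaperone or storage-sugar targets lower and 0 regulators (7 lower at an unadjusted p under 0.05 in limma). There 0 general stress genes were higher and 0 lower (4 and 4 at an unadjusted p under 0.05). Leaving out 1 array gave 0 to 96 genes higher and 0 to 121 lower, 0 to 3 general stress genes higher and 0 to 3 lower, 0 to 5 other targets, 0 to 2 regulators and 0 to 1 paralog lower. Calls of 0 over all genes came without array 3, where limma had 164 higher and 221 lower at an unadjusted p under 0.05. Without array 1 TFS1 was the 1 general stress gene called, and without array 2 none was (smallest adjusted p 0.0585; 3 higher and 4 lower unadjusted). The median of the general stress genes ran from −0.49 without array 3 to −0.02 without array 4.

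Genes without a call changed sign in some settings: HYR1 (0.0166) and SPS100 (0.0111) with median centring, and others with 1 array left out. Those means ran from −0.18 to 0.22 for DCS1, −0.38 to 0.15 for DCS2, −0.54 to 0.0525 for GND1, −0.25 to 0.14 for HOR7, −0.16 to 0.0915 for HYR1, −0.39 to 0.72 for NQM1, −0.49 to 0.055 for OM45, −0.34 to 0.0375 for RTN2, −0.18 to 0.011 for SED1, −0.093 to 0.29 for SOL3, −0.17 to 0.65 for SPI1, −0.30 to 0.22 for SPS100, −0.32 to 0.0765 for TKL1 and −0.05 to 0.28 for USV1. Scanner intensities were not used here, so brightness could not be weighed. The cause of these changes was not tested.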
